A study of Homo sapiens with 9 samples.

Results

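The 6 spliceosomal small nuclear RNA (snRNA) genes described here are RNU1-1, RNU1-3, RNVU1-7, RNVU1-18, RNU4ATAC and RNU6-1, which were measured by 1 probe each among 20046 annotated genes on an Illumina expression array. They were chosen by symbol, with their values in all 3 groups of these data known, so their levels are given as a description with no test. All 6 probes were detected on every array used, at a detection p-value under 0.05. The cells were MDA-MB-231, a human cell line from a metastatic, hormone receptor-negative breast cancer. They were transfected for 24 h with 200 pmol siRNA against a spliced isoform of MTDH (isoform knockdown, 3 arrays) or against wild-type MTDH (WT knockdown, 3 arrays), or were untreated (control, 3 deposited arrays). MTDH (metadherin) is a protein studied for its part in metastasis and drug resistance.

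The 6 genes make the RNA parts of the machines that remove introns. U1 snRNA pairs with the start of an intron, the 5′ splice site. U6 replaces U1 there and forms the catalytic centre together with U2, after it has been delivered by pairing with U4. U4atac does the job of U4 in the minor spliceosome, which removes a rare class of introns, and mutations of its gene cause developmental disease in people. U1, U4 and U5 are transcribed by RNA polymerase II with the snRNA-activating complex SNAPc and are cleaved by Integrator, then mature in the cytoplasm on the SMN complex. U6 and U6atac are made by RNA polymerase III and stay in the nucleus, where Lsm proteins and La (SSB) bind them. Mature snRNAs carry no poly(A) tail, and the labelled RNA was made with a MessageAmp kit, in which an oligo(dT) primer starts the copying. What share of the mature snRNA such a probe reports is not given in the sources used here.

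Control replicate 2 held the mean of control replicates 1 and 3 at 47231 of 47231 probes and was left out, so each control value rests on 2 arrays. The deposited knockdown signals stood beside wrong probe IDs and were put back by their match to the authors' log2 table, in which all 47231 rows found exactly 1 partner. Between 43% and 46.1% of the probes were detected on the 8 arrays used. The number of arrays limits the precision. No label ties the replicates to separate cultures, so the p-values speak only of the scatter among these arrays, possibly a technical one. No slide or scan time is given. Controls were untreated, so an effect of transfection cannot be told apart from one of the MTDH siRNAs, and handling cannot be told apart from group either. All 6 markers fixed for the line, VIM, CD44, CAV1, AXL, MSN and TGFBI, were detected on all 8 arrays, and so were KRT19 and GATA3 of the 7 luminal epithelial markers, whereas the other 5, ESR1, PGR, FOXA1, CDH1 and TFF1, were detected on none. Of the 5 leukocyte markers on the array, CD14 and LCP1 were detected on all 8 arrays, PTPRC on 1 isoform knockdown array, and CD3E and CD53 on none. The 5 fibroblast markers had a summed normalized signal of 250.3 to 283.0 in the isoform knockdown, 195 to 215 in the WT knockdown and 261 to 285 in controls. The lower sum followed PDGFRB, with a mean log2 signal of 7.02 in the isoform knockdown, 6.01 in the WT knockdown and 7.33 in controls, while COL1A1 averaged 5.23 in the isoform knockdown, 5.63 in the WT knockdown and 4.95 in controls. DCN and LUM were also higher on average in both knockdowns than in controls, where neither was above background. The part of these markers in the results was not tested. Less RNA per cell and fewer cells of a kind cannot be told apart in such bulk samples.

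The MTDH probe (ILMN_1810838) had a normalized log2 signal of 9.87, 9.75 and 9.68 in the isoform knockdown, 9.59, 9.79 and 9.90 in the WT knockdown, and 10.71 and 10.69 in controls. MTDH RNA was thus lower in all 6 knockdown arrays than in both controls. The isoform knockdown had 52.3% of the control level (log2 difference -0.93 ± 0.11, SE, limma adjusted p = 0.000285) and the WT knockdown 52.1% (-0.94 ± 0.11, limma adjusted p = 0.000123). Between the 2 knockdowns it differed by 0.00 ± 0.10 (limma adjusted p = 0.977). Which forms of MTDH the probe reads is not given in the sources used here.

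All 6 snRNA probes had their highest signal in the WT knockdown. In each of them the 3 WT knockdown arrays lay above the 3 isoform knockdown arrays and above both controls. Signals are normalized log2 intensities, which are compared between groups for 1 probe and not between probes. Errors on means are SD over n = 3 arrays for each knockdown and n = 2 for the control.

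The variant U1 genes and RNU1-3 had the largest of the 6 differences from control in both knockdowns. RNVU1-18 (ILMN_3236653), a variant U1 gene, gave 9.07, 9.42 and 9.50 in the isoform knockdown, 10.30, 10.07 and 10.30 in the WT knockdown, and 8.33 and 8.49 in controls. The 3 groups formed separate steps with no overlap. It averaged 9.33 ± 0.23 in the isoform knockdown, 10.22 ± 0.13 in the WT knockdown and 8.41 ± 0.11 in controls. RNVU1-7 (ILMN_3244646), another variant gene of the U1 family, had 8.58, 8.78 and 8.93 in the isoform knockdown, 9.24, 9.14 and 9.60 in the WT knockdown, and 7.62 and 7.66 in controls. It showed the same order of groups, again without overlap. RNU1-3 (ILMN_3246273), one of the copies of the major U1 gene, had 8.70, 8.96 and 9.06 in the isoform knockdown, 9.46, 9.38 and 9.52 in the WT knockdown, and 7.76 and 7.93 in controls. Its knockdown arrays were likewise all above the controls, with the WT knockdown on top.

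RNU1-1 (ILMN_3245678), also a copy of the major U1 gene, had another profile. It gave 8.16, 8.91 and 8.60 in the isoform knockdown, 9.38, 9.22 and 9.54 in the WT knockdown, and 8.28 and 8.46 in controls. The WT knockdown stood apart, while the isoform knockdown arrays lay on both sides of the controls. Before normalization its signal was 359, 508 and 395 in the isoform knockdown, 709, 637 and 653 in the WT knockdown, and 450 and 381 in controls, and the isoform knockdown and control again overlapped.

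RNU4ATAC (ILMN_3240594), the U4atac gene of the minor spliceosome, gave 7.68, 8.27 and 8.14 in the isoform knockdown, 8.79, 8.68 and 9.01 in the WT knockdown, and 7.68 and 7.82 in controls. Only the WT knockdown was clear of the controls. RNU6-1 (ILMN_3308335), one of the U6 genes, gave 12.12, 12.26 and 12.45 in the isoform knockdown, 12.76, 12.82 and 12.83 in the WT knockdown, and 12.20 and 12.13 in controls. Here too the isoform knockdown overlapped with the controls and the WT knockdown did not. The signal of RNU6-1 before normalization was 5026, 4949 and 5186 in the isoform knockdown, 6856, 6948 and 6183 in the WT knockdown, and 5913 and 4357 in controls, so the WT knockdown was highest on that scale as well.

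**Figure D1:**
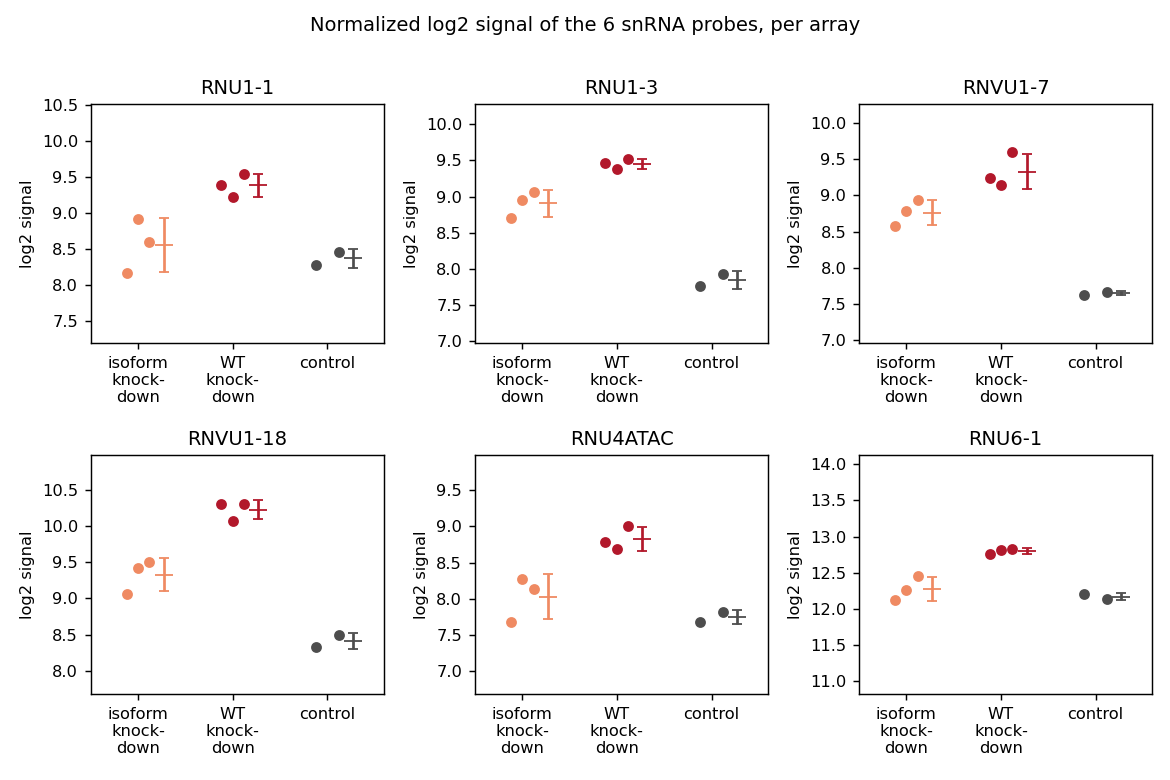
Normalized log2 signal (vertical axis) of the 6 snRNA probes on each array of the isoform knockdown, WT knockdown and control; every point is 1 array, the bar beside the points is the mean with SD, and all panels span the same range of log2 units. The 3 WT knockdown points are the highest in each panel, and the isoform knockdown is clear of the controls for RNU1-3, RNVU1-7 and RNVU1-18.

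Set against controls, the WT knockdown was higher for 6 of the 6 genes with no overlap between the groups. By the same measure 32.6% of the 22467 probes tested were higher without overlap, and since the 6 genes were chosen on this contrast nothing is read from their count. The differences were 1.81 ± 0.14 on the log2 scale for RNVU1-18, 1.68 ± 0.15 for RNVU1-7, 1.61 ± 0.12 for RNU1-3, 1.08 ± 0.17 for RNU4ATAC, 1.01 ± 0.19 for RNU1-1 and 0.64 ± 0.11 for RNU6-1 (SE from the fit over all 8 arrays). As folds these ran between 1.55 and 3.51. Their median was 1.34, beside -0.01 over all probes tested, of which the highest 5% lay above 1.01. Under median scaling in place of quantile normalization the median of the 6 was 1.04, with that of all probes at -0.19. The values of RNU1-3, RNVU1-7 and RNVU1-18 overlapped within their SE in this contrast, and so did those of RNU1-1 and RNU4ATAC. Differences between the genes were not tested.

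The isoform knockdown was higher than control without overlap for 3 of the 6 genes, against 30% of all probes tested. These were RNVU1-7, with a log2 difference of 1.12 ± 0.15, RNU1-3 with 1.06 ± 0.12, and RNVU1-18 with 0.92 ± 0.14. The remaining 3 had differences of 0.28 ± 0.17 for RNU4ATAC, 0.19 ± 0.19 for RNU1-1 and 0.11 ± 0.11 for RNU6-1. The intervals of 1 SE around RNU1-1 and RNU6-1 reach 0, and under median scaling both values turned negative, at -0.08 for RNU1-1 and -0.11 for RNU6-1. The median over the 6 genes was 0.60, beside -0.0039 over all probes, and 0.35 under median scaling, where all probes had a median of -0.14.

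The isoform knockdown was lower than the WT knockdown for 6 of 6 genes without overlap, a pattern found in 21.3% of all probes. The differences ran between -0.90 ± 0.13 for RNVU1-18 and -0.53 ± 0.10 for RNU6-1, with -0.82 ± 0.17 for RNU1-1, -0.80 ± 0.15 for RNU4ATAC, -0.56 ± 0.13 for RNVU1-7 and -0.55 ± 0.11 for RNU1-3. The median was -0.68, beside 0.02 over all probes. Both knockdowns were set against the same 2 controls, so the contrasts with control are given side by side and are not independent.

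Single arrays of the isoform knockdown differed in the snRNAs. The median of the 6 genes relative to the control mean was 0.30 on replicate 1, with RNU1-1 at the low end, against 0.77 on replicate 2 and 0.74 on replicate 3. The 3 WT knockdown arrays had medians of 1.32, 1.21 and 1.47. Without isoform knockdown replicate 1 the median difference from control over the 6 genes was 0.75.

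The 6 profiles fell into sets that followed the RNA class only in part. The U1 genes RNU1-3, RNVU1-7 and RNVU1-18 lay close together, whereas the U1 gene RNU1-1 lay nearer to RNU4ATAC and RNU6-1. Likeness was measured as the root mean square difference over the 8 arrays, each probe taken relative to its control mean. RNU1-1 and RNU4ATAC were 0.09 apart, the smallest distance of any pair, although they encode RNAs of different spliceosomes. RNU1-3 and RNVU1-7 were 0.11 apart, RNU1-3 and RNVU1-18 0.16, and RNVU1-7 and RNVU1-18 0.18. RNU1-1 was 0.66 from RNU1-3, 0.72 from RNVU1-7 and 0.67 from RNVU1-18, the other U1 genes. RNU6-1 was 0.30 from RNU1-1 and 0.32 from RNU4ATAC, and farther from the rest.

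Near-identical copies limit what these symbols mean. The RefSeq gene table for GRCh38.p14 lists 144 genes of the U1 family, 21 of them snRNA genes and 123 pseudogenes, and all 4 U1 genes described here lie on chromosome 1 and are 164 nucleotides long. It lists 1282 genes of the U6 family, of which 5 are snRNA genes of 107 nucleotides and 1277 are pseudogenes. RNU6-1 lies on chromosome 15. The U4atac family has 1 snRNA gene, RNU4ATAC, on chromosome 2, with 130 nucleotides, and 17 pseudogenes. A probe in a U1 or U6 gene may therefore read several copies. Probe and gene sequences were not used here, so whether the 4 U1 probes are independent measures was not tested.

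Of the protein-coding genes that hold or flank the 6 snRNA genes in that table, 8 were measured. By limma, 3 of the 8 were higher than control and none was lower in the isoform knockdown, and 4 were higher and 1 was lower in the WT knockdown. Among all 12239 genes measured, 19.9% were higher and 24.1% lower in the isoform knockdown, and 26.6% and 29.7% in the WT knockdown. With 8 genes, nothing is read from these counts. CLASP1, a microtubule-binding protein whose gene contains RNU4ATAC, had a difference of -0.08 ± 0.09 in the isoform knockdown (limma adjusted p = 0.531) and -0.29 ± 0.09 in the WT knockdown (limma adjusted p = 0.0292), where RNU4ATAC itself had 1.08. The call for CLASP1 was lost without either control or without any 1 of the WT knockdown arrays, at adjusted p-values of 0.0505 to 0.114. NIFK, a nucleolar protein gene beside CLASP1, rose in both knockdowns, with 1.08 ± 0.10 in the isoform knockdown (limma adjusted p = 6.26e-05) and 1.39 ± 0.10 in the WT knockdown (limma adjusted p = 5.71e-06). CLASP1 and NIFK were picked after their values were seen.

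The array holds 9 further symbols of the U class. RNU2-1, RNU5D-1 and RNU105B were not detected on any array, and RNU105B and RNU105C are snoRNAs by their RefSeq class. The remaining 5 snRNA genes all rose in the WT knockdown, where 24.5% of all probes tested rose and 27% fell. RNU5A-1, a U5 gene whose RNA holds the exons during splicing, had 5.94, 6.40 and 6.28 in the isoform knockdown, 7.68, 7.82 and 8.22 in the WT knockdown, and 5.54 and 5.60 in controls. It thus formed 3 steps without overlap. Its difference in the WT knockdown was 2.34 ± 0.18 (limma adjusted p = 9.55e-06). RNU4-1 and RNU4-2, the genes of U4, rose by 1.76 ± 0.16 (limma adjusted p = 2.39e-05) and 1.15 ± 0.15 (limma adjusted p = 0.000225). RNU6ATAC, the U6 counterpart of the minor spliceosome, rose on both of its probes, by 1.55 ± 0.16 and 1.26 ± 0.12 (limma adjusted p = 5.10e-05 and 3.38e-05). RNU11, which recognizes the 5′ splice site in the minor spliceosome, rose on both probes by 0.98 ± 0.14 and 0.73 ± 0.17 (limma adjusted p = 0.000317 and 0.00520). The minor spliceosome's RNAs and those of the major one were therefore both among the genes that rose.

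In the isoform knockdown 2 of these genes rose, where 19.1% of all probes rose and 21% fell. RNU6ATAC was higher on both probes, by 1.14 ± 0.16 and 0.99 ± 0.12 (limma adjusted p = 0.000631 and 0.000291), with 7.55, 7.86 and 8.13 in the isoform knockdown, 8.30, 8.13 and 8.37 in the WT knockdown, and 6.63 and 6.80 in controls on the brighter probe. RNU5A-1 rose by 0.64 ± 0.18 (limma adjusted p = 0.0175), a call lost without control 1, control 3 or isoform knockdown replicate 2, at adjusted p-values of 0.0879, 0.0682 and 0.0526. RNU4-1 and RNU4-2 did not pass, with differences of 0.40 ± 0.16 (limma adjusted p = 0.0698) and 0.40 ± 0.15 (limma adjusted p = 0.0643). They passed under 5 and 6 of 17 alternatives, among them RNU4-1 without control 3 (0.0488) or isoform knockdown replicate 2 (0.0381) and RNU4-2 without isoform knockdown replicate 1 (0.0131). Neither probe of RNU11 passed, with differences of -0.02 ± 0.14 and -0.09 ± 0.17 (limma adjusted p = 0.941 and 0.688).

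The difference between the knockdowns was tested directly. Relative to the WT knockdown, the isoform knockdown had less RNU5A-1 (-1.70 ± 0.16, limma adjusted p = 8.27e-05), RNU4-1 (-1.36 ± 0.14, limma adjusted p = 0.000150), RNU11 (-0.82 ± 0.15, limma adjusted p = 0.00278) and RNU4-2 (-0.76 ± 0.14, limma adjusted p = 0.00274), where 15.6% of all probes were lower and 17.3% higher. For RNU6ATAC the difference of -0.42 ± 0.14 was just past the threshold (limma adjusted p = 0.0494) and was lost under 9 of 17 alternatives, among them leaving out any array except isoform knockdown replicate 3 (0.0556 to 0.144); its second probe gave -0.26 ± 0.11 (limma adjusted p = 0.0883). RNU105C, the snoRNA, did not pass in any of the 3 contrasts, but the difference between the knockdowns of 0.40 (limma adjusted p = 0.0548) passed under 6 of 17 alternatives, among them the replicate block (0.0263) and leaving out control 1 (0.0321), control 3 (0.0313) or WT knockdown replicate 3 (0.0341).

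**Figure D2:**
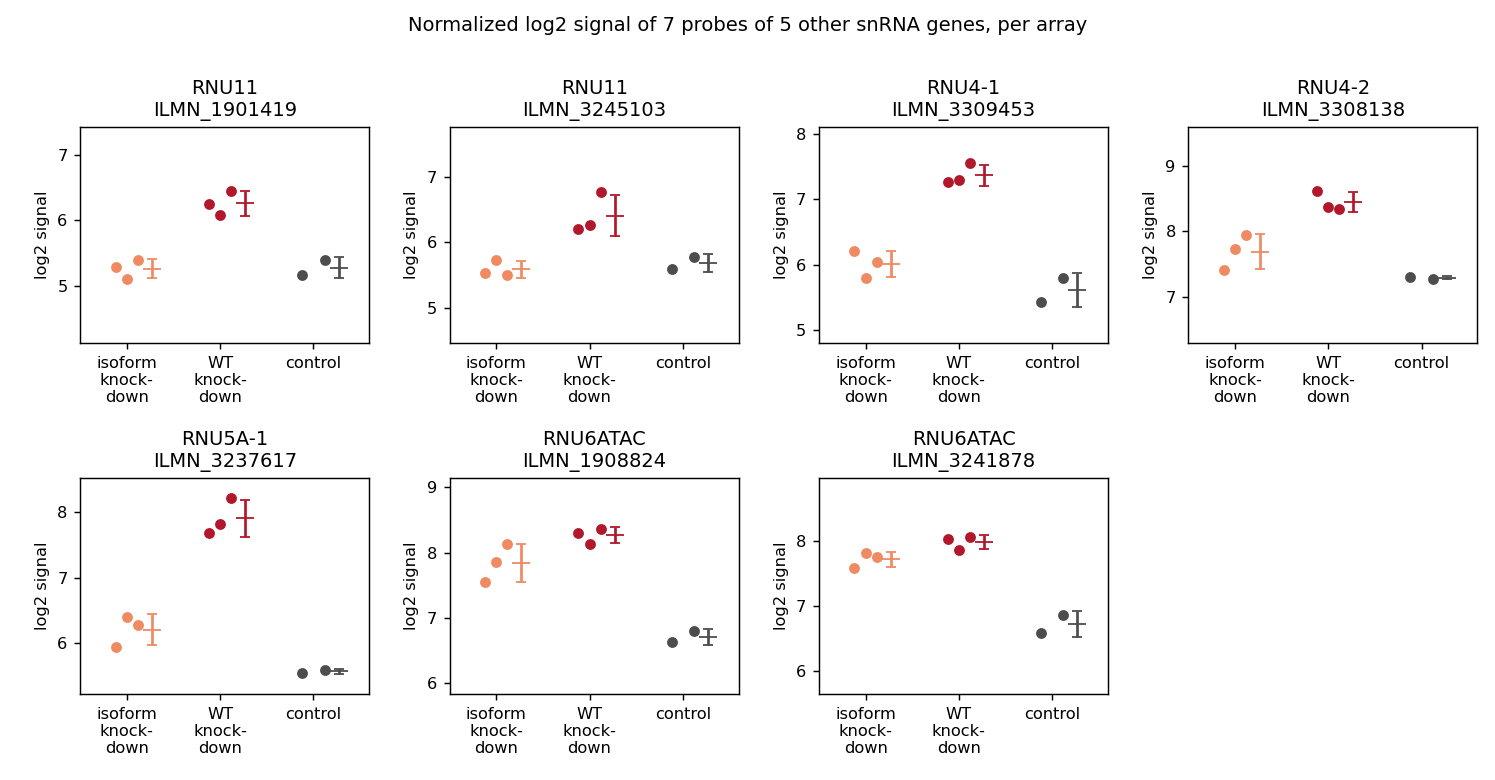
Normalized log2 signal (vertical axis) of 7 probes of the 5 other snRNA genes on each array of the isoform knockdown, WT knockdown and control; points are arrays and bars are mean and SD. For RNU11 the isoform knockdown overlaps with the controls, while both RNU6ATAC probes are above the controls in both knockdowns.

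**Figure D3:**
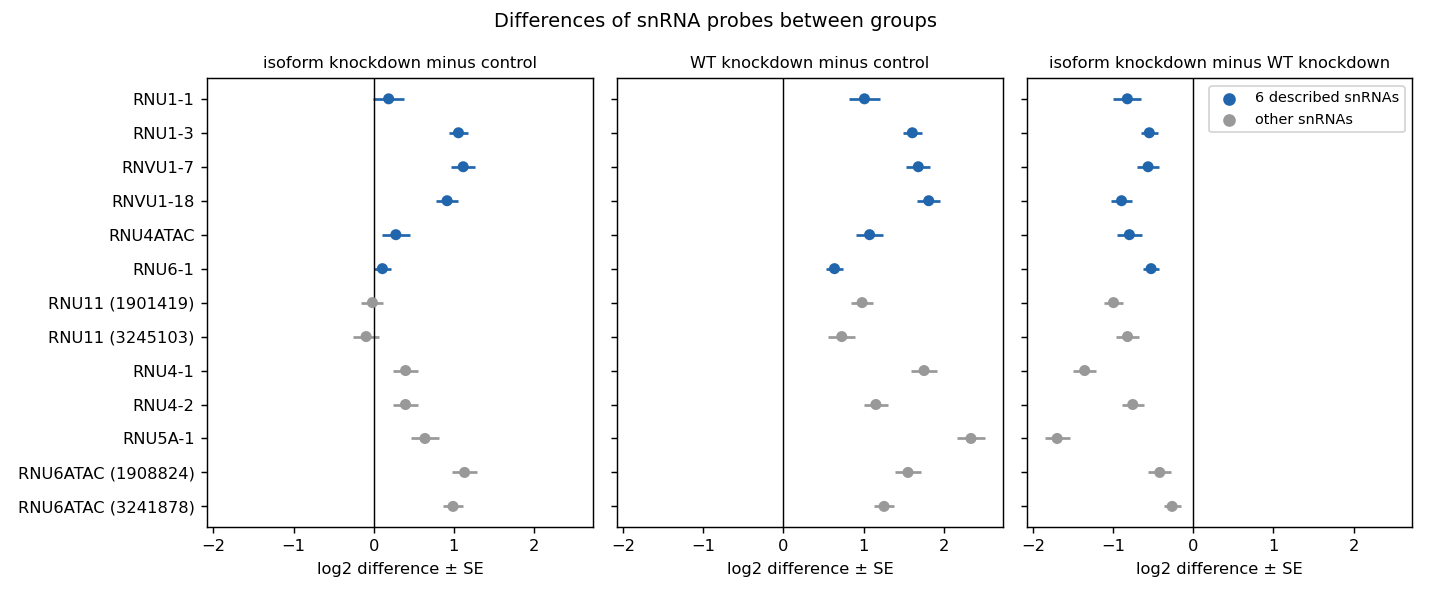
Log2 differences with SE (horizontal axis) for the 6 described genes (blue) and the other snRNA probes (grey) in the 3 contrasts, with the last digits of the probe ID where a gene has 2 probes. All 13 points are positive in the WT knockdown minus control, between 0.64 and 2.34, and negative in the isoform knockdown minus WT knockdown.

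Genes whose protein products make, process or bind snRNAs were followed through 7 lists, of which 106 of 110 genes were measured. In the WT knockdown 44 rose and 19 fell, and the median difference was 0.16. Over all 12239 genes measured, 26.6% rose and 29.7% fell, with a median of -0.02. This split depended on the scaling: under median scaling 19 rose and 30 fell. In the isoform knockdown 28 rose and 16 fell with a median of 0.01, while 19.9% of all genes rose and 24.1% fell. Under median scaling 7 rose and 25 fell. Among the genes called in the WT knockdown, 2 were below background on every array of one group. All adjusted p-values below are from limma.

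Of 25 transcription factors and Integrator subunits, 13 rose and 4 fell in the WT knockdown, with a median of 0.30. Under median scaling 4 rose and 5 fell there. BRF2, the factor that brings RNA polymerase III to U6-type promoters, rose by 2.24 ± 0.10 (adjusted p = 7.75e-07). ZNF143, an activator of snRNA promoters, rose by 2.15 ± 0.15 (adjusted p = 6.31e-06) and SNAPC4, the DNA-binding subunit of SNAPc, by 1.34 ± 0.09 (adjusted p = 5.49e-06). INTS8, an Integrator subunit, fell by 1.36 ± 0.14 (adjusted p = 5.57e-05). The isoform knockdown had 5 higher and 5 lower, or 2 and 6 under median scaling. SNAPC1, another SNAPc subunit, rose by 0.82 ± 0.10 (adjusted p = 0.000267) and BRF2 by 0.66 ± 0.10 (adjusted p = 0.000977), whereas INTS8 fell by 0.93 ± 0.14 (adjusted p = 0.000986) and INTS1 by 0.88 ± 0.10 (adjusted p = 0.000255). BRF2 was lower in the isoform knockdown than in the WT knockdown (-1.58 ± 0.09, adjusted p = 8.57e-06), as were ZNF143 (-1.56 ± 0.13, adjusted p = 6.00e-05) and SNAPC4 (-0.99 ± 0.08, adjusted p = 4.68e-05).

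The proteins of the U1 particle moved in both directions. In the WT knockdown 5 of 9 rose and 2 fell, 4 in all without control 3, and under median scaling 1 rose and 3 fell. PRPF39, a U1-associated factor, was above background on the 3 WT knockdown arrays and on no other, so it passed the detection filter through that group. It was at least 1.62-fold higher in the WT knockdown than in controls, set against the lowest detected signal of each control array (mean log2 signal 5.56 in the WT knockdown and 4.54 in controls, adjusted p = 7.29e-05). SNRNP70, the U1-70K protein that binds the first stem loop of U1, fell there by 0.45 ± 0.09 on its brightest probe (adjusted p = 0.00298). Its other probes, at 0.28 and -0.14, did not pass (adjusted p = 0.130 and 0.286). In the isoform knockdown the former rose by 0.68 (adjusted p = 0.00515), while the brightest probe had -0.13 (adjusted p = 0.279). Of the same 9, 1 rose and 1 fell in the isoform knockdown. None passed there without control 3, and 1 passed without isoform knockdown replicate 1 or 3 or under median scaling. Of 7 measured Sm proteins, which form the ring common to most snRNPs, 1 rose and 1 fell in the WT knockdown, and 3 fell under median scaling. SNRPD3 fell by 0.89 ± 0.15 (adjusted p = 0.000797). SNRPB had a difference of 0.30 ± 0.09 (adjusted p = 0.0182), not past the threshold without control 1 (0.0585), control 3 (0.102) or WT knockdown replicate 2 (0.0573). SNRPB was the 1 Sm gene that rose in the isoform knockdown, by 0.61 ± 0.09 (adjusted p = 0.000764), but not under median scaling (0.109), where 2 others fell, and 2 passed there without WT knockdown replicate 3 or isoform knockdown replicate 3. The second SNRPB probe passed in neither knockdown, at 0.11 in the isoform and 0.02 in the WT knockdown (adjusted p = 0.339 and 0.870).

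Of the 14 genes of U6 processing, 4 rose and 7 fell in the isoform knockdown (2 and 8 under median scaling), and 4 rose and 6 fell in the WT knockdown (3 and 7). LSM6 and LSM7 belong to the Lsm ring, which binds the 3′ end of U6. LSM6 fell by 1.34 ± 0.14 in the isoform knockdown (adjusted p = 0.000144) and LSM7 by 0.74 ± 0.10 in the WT knockdown (adjusted p = 0.000182), but LSM7 did not pass in the isoform knockdown (-0.13 ± 0.10, adjusted p = 0.291). SART3, which rejoins U4 and U6, rose by 0.83 ± 0.12 in the isoform knockdown (adjusted p = 0.000589) and 1.16 ± 0.12 in the WT knockdown (adjusted p = 4.24e-05). METTL16, the methyltransferase of U6, rose by 0.63 ± 0.10 in the isoform knockdown (adjusted p = 0.000927) and 0.89 ± 0.10 in the WT knockdown (adjusted p = 6.83e-05). Of the 16 tri-snRNP proteins none fell in either knockdown, and 5 rose in the isoform knockdown and 7 in the WT knockdown. Under median scaling none rose and 1 fell in the isoform knockdown, and 4 rose and 2 fell in the WT knockdown. PRPF3, a U4/U6 protein, rose by 0.65 ± 0.09 in the isoform knockdown (adjusted p = 0.000420, 0.117 under median scaling) and 1.44 ± 0.09 in the WT knockdown (adjusted p = 2.68e-06). SNRNP200, the helicase that unwinds U4 from U6, rose by 1.32 ± 0.11 in the WT knockdown (adjusted p = 1.60e-05) on its brightest probe.

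Of the 14 proteins of the minor spliceosome, 7 rose and none fell in the isoform knockdown (3 and 2 under median scaling), and 7 rose and 1 fell in the WT knockdown (5 and 1). TXNL4B, a thioredoxin-like splicing protein, rose by 1.24 ± 0.18 in the isoform knockdown (adjusted p = 0.000632) and 1.85 ± 0.18 in the WT knockdown (adjusted p = 3.27e-05). ARMC7 rose by 1.20 ± 0.11 in the isoform knockdown (adjusted p = 6.18e-05) and 1.21 ± 0.11 in the WT knockdown (adjusted p = 2.13e-05). ZRSR2, which recognizes the 3′ splice site of minor introns, rose by 1.14 ± 0.09 in the WT knockdown (adjusted p = 1.20e-05) and was lower in the isoform knockdown than there (-0.87 ± 0.08, adjusted p = 8.20e-05). Of 21 assembly and export factors, 5 rose and 3 fell in the isoform knockdown and 7 rose and 5 fell in the WT knockdown. These counts moved with the controls: 3 passed in the isoform knockdown without control 1 or control 3, and 7 in the WT knockdown without control 3. Under median scaling none rose and 5 fell in the isoform knockdown, and 2 rose and 9 fell in the WT knockdown. GEMIN5, which reads the snRNA code for the SMN complex, rose by 0.93 ± 0.09 in the WT knockdown (adjusted p = 3.57e-05), and KPNB1, an import receptor, fell by 0.82 ± 0.10 in the isoform knockdown (adjusted p = 0.000379).

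Tested against each other, the isoform knockdown was higher than the WT knockdown for 15 of the 106 genes and lower for 42, with 19% and 18.8% among all genes. Under median scaling 10 were higher and 19 lower. The transcription list held 13 of the lower genes and 3 of the higher ones, and 8 and 2 under median scaling. The U6 list had 7 lower and 1 higher, 4 to 6 in all when any 1 array was left out, with 6 only without isoform knockdown replicate 1, and 1 lower and 1 higher under median scaling. The assembly list had 9 lower and 4 higher, and 7 in all without WT knockdown replicate 1 or 3 and 8 without isoform knockdown replicate 1 or 2. Under median scaling it had 1 lower and 2 higher.

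**Figure D4:**
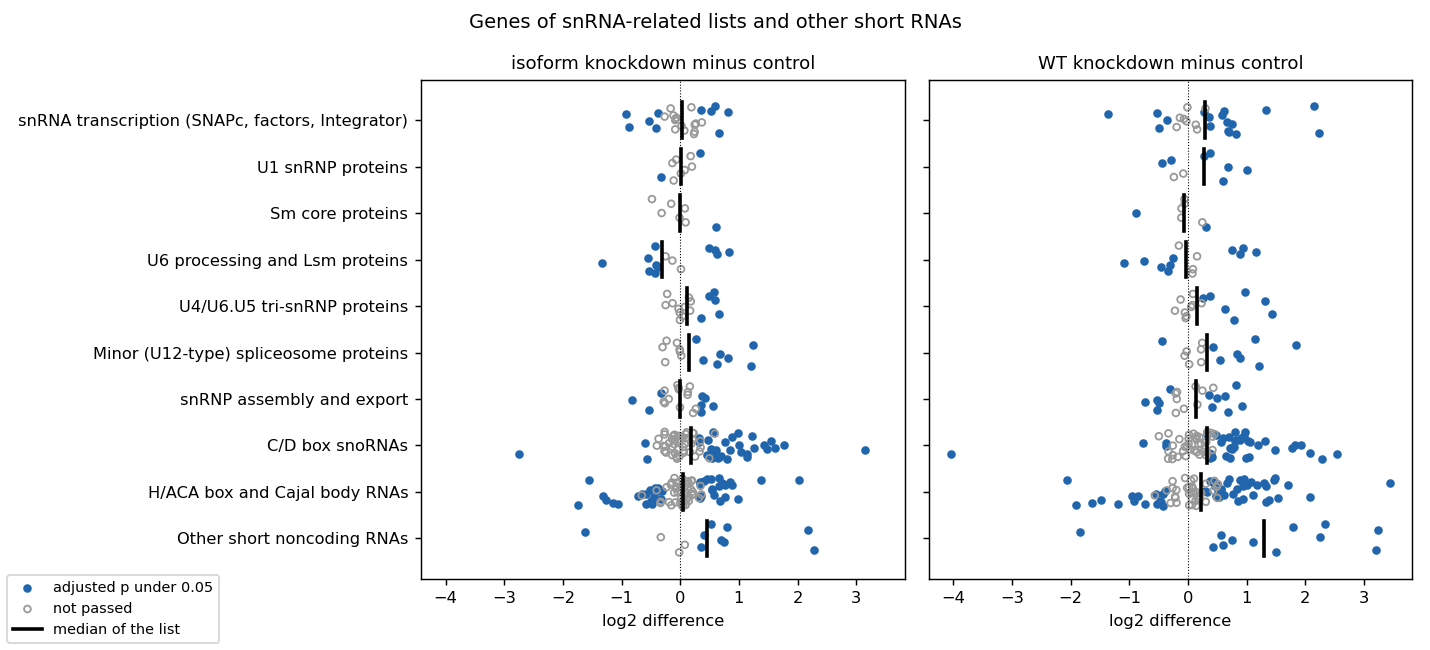
Log2 difference from control (horizontal axis) of each measured gene in the isoform knockdown (left) and the WT knockdown (right), by list; filled points passed the limma adjusted p threshold of 0.05 and the black bar is the list's median. The short noncoding RNAs in the lowest row have a median of 0.46 in the isoform knockdown and 1.30 in the WT knockdown, and the protein lists have medians between -0.32 and 0.33.

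Other short noncoding RNAs were set beside the snRNAs because they share the lack of a poly(A) tail or the polymerase. Of 12 such genes measured outside the snoRNA classes, 8 rose and 1 fell in the isoform knockdown, 5 in all without control 1 or under median scaling. In the WT knockdown 11 rose and 1 fell, or 8 and 1 under median scaling. Relative to the WT knockdown, 7 of them were lower and none was higher in the isoform knockdown. Among all 12239 genes measured, 19.9% rose and 24.1% fell in the isoform knockdown, and 26.6% rose and 29.7% fell in the WT knockdown. Between the knockdowns 19% of all genes were higher and 18.8% lower in the isoform knockdown. RN7SK, the RNA that holds the elongation factor P-TEFb, rose by 2.28 ± 0.10 in the isoform knockdown (adjusted p = 1.84e-06) and 3.20 ± 0.10 in the WT knockdown (adjusted p = 1.18e-07). VTRNA1-1, a vault RNA, rose by 2.17 ± 0.20 in the isoform knockdown (adjusted p = 6.47e-05) and 3.24 ± 0.20 in the WT knockdown (adjusted p = 2.97e-06). TERC, the telomerase RNA, fell by 1.63 ± 0.13 in the isoform knockdown (adjusted p = 3.44e-05) and was the gene of the list that fell. Of 78 box C/D snoRNAs, 29 rose and 3 fell in the isoform knockdown (median 0.18), with 23 and 6 under median scaling. In the WT knockdown 35 rose and 4 fell (median 0.33), with 29 and 6 under median scaling. Of 89 box H/ACA and Cajal body RNAs, 22 rose and 20 fell in the isoform knockdown (median 0.05). Without control 3, 25 passed there in all, and under median scaling 14 rose and 16 fell. In the WT knockdown 37 rose and 16 fell (median 0.23), with 27 and 18 under median scaling. The counts of this class in the isoform knockdown were near the shares of all genes, so nothing is read from them. Of the genes called in these 3 lists, 10 in the isoform knockdown and 13 in the WT knockdown were below background on every array of a group. Set against the WT knockdown, the isoform knockdown had 12 box C/D RNAs higher and 26 lower (12 and 15 under median scaling), and 5 box H/ACA RNAs higher and 24 lower (7 and 18).

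The annotated genes nearest to the 6 profiles were found by the same distance over the 8 arrays. RNU1-3 was nearest to KDM3A (0.06), RNU6ATAC (0.09) and STAT5A (0.10). RNVU1-7 was nearest to PPP1R15A (0.11), PER2 (0.12) and KDM3A (0.13), and RNVU1-18 to PPP1R15A (0.13), TIMM44 (0.14) and KDM3A (0.15). The nearest genes of RNU1-1 were COQ6 (0.14), SIGLEC6 (0.15) and GORAB (0.15), and those of RNU4ATAC were SIGLEC6 (0.12), QTRT2 (0.12) and GORAB (0.13). RNU6-1 was nearest to ZNF12 (0.06), HEATR5B (0.07) and IRF3 (0.07). Of the genes just named, RNU6ATAC is the one small RNA. KDM3A had differences of 1.04 in the isoform knockdown and 1.64 in the WT knockdown, while RNU1-3 had 1.06 in the isoform knockdown and 1.61 in the WT knockdown.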

How the data were processed

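Per the file headers, the authors' first table gives each probe a mean signal intensity with its detection p-value, and shows no sign of normalization. The authors' other deposited table is on a log2 scale and looks quantile normalized. The submitters' processing notes name R 3.1.0. Symbols came from GEO's platform annotation: 30113 probes had 1, 8 had several and 17110 had none. From the signals, normexp by detection p (offset 16), quantile normalization and log2 (neqc, limma 3.58.1, R 4.3.3) were run on 8 arrays. The 22467 probes detected (p under 0.05) in at least 3 of the 9 deposited columns were fitted in 1 limma model over the 3 groups (5 residual degrees of freedom), with Benjamini-Hochberg adjustment over all of them and a threshold of 0.05, which was tested on simulated data. A gene is its brightest probe. The members and lists were chosen with earlier results of these data known. Named are the 6 genes, MTDH, up to 4 genes of each list with the smallest adjusted p per contrast, every U-class snRNA and the 3 nearest genes per profile. Alternatives were the authors' values, background correction, median scaling, filters, a moderated trend, control 2 kept, a replicate block and leaving out each array. The line, luminal, leukocyte and fibroblast marker lists served only to check the cells.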

Additional observations from a re-analysis of the deposited data

Results flagged for a closer look

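For 8 genes every array of one knockdown lay above both controls and every array of the other lay below them, and the difference between the knockdowns passed limma's test. The share of all probes with this pattern is not given here, so nothing is read from the count. Against the 2 controls, 30% of all probes tested were higher without overlap in the isoform knockdown and 32.6% in the WT knockdown. Not every side passed limma's test against control. SNRNP27 (limma adjusted p = 0.353) and LARP7 (0.473) failed it for the WT knockdown. DHX15 failed it on both sides (0.0646 isoform, 0.0819 WT). RNY5, LUC7L and SNRNP48 failed it on the isoform side. For STRAP and CLNS1A the tests against control are not given here. RNY5, a Y RNA, had a log2 difference from control of -0.33 in the isoform knockdown and 2.26 in the WT knockdown (isoform minus WT -2.59, limma adjusted p = 2.06e-06). LUC7L, a U1-associated protein, had -0.11 in the isoform knockdown and 0.60 in the WT knockdown (-0.71, limma adjusted p = 0.000387). SNRNP27, a tri-snRNP protein, had 0.59 in the isoform and -0.12 in the WT knockdown (0.71, limma adjusted p = 0.000531). Its second probe had 0.48 and -0.22 (0.70, limma adjusted p = 0.000341). LARP7, which binds U6 and 7SK RNA, had -0.43 in the isoform and 0.077 in the WT knockdown (-0.51, limma adjusted p = 0.000922). On its second probe both differences were negative, at -0.64 in the isoform and -0.14 in the WT knockdown. The difference between the knockdowns passed there too (-0.51, limma adjusted p = 0.00616). SNRNP48, of the U11/U12 particle, had -0.30 in the isoform and 0.42 in the WT knockdown (-0.73, limma adjusted p = 0.00274). STRAP, of the SMN complex, had -0.27 in the isoform and 0.25 in the WT knockdown (-0.52, limma adjusted p = 0.00185). DHX15, a splicing helicase, had -0.26 in the isoform and 0.23 in the WT knockdown (-0.48, limma adjusted p = 0.00287). Its second probe had -0.03 in the isoform knockdown (limma adjusted p = 0.787) and 0.41 in the WT knockdown (-0.44 between them, limma adjusted p = 0.00177). CLNS1A, an Sm protein chaperone, had 0.22 in the isoform and -0.20 in the WT knockdown (0.42, limma adjusted p = 0.00458). Under median scaling the tests for DHX15 and STRAP were no longer passed (limma adjusted p = 0.132 and 0.0807), and that for SNRNP27 was not recomputed.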

How the results depend on the processing

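Median scaling gave the 6 genes a median of 0.35 in the isoform knockdown and 1.04 in the WT knockdown, and called 29 pathway genes between the knockdowns, against 57. Over all probes it called 4920 between the knockdowns (7399 by quantile normalization), 3045 higher and 1875 lower in the isoform knockdown, with 2103 higher and 5753 lower in the isoform knockdown and 2849 higher and 7765 lower in the WT knockdown relative to control. It also turned SNRPC (-0.079) and RBM25 (-0.098) of the isoform knockdown and SNRPB (-0.049) and SNRPD1 (-0.069) of the WT knockdown. The cause was not tested. Of 150 recomputed medians and counts of called genes, the other 147 lay within 1 SD or 1.5 times of the reported value. The split of the pathway genes turned under median scaling, with 7 higher and 25 lower in the isoform knockdown (28 and 16 by quantile normalization) and 19 higher and 30 lower in the WT knockdown (44 and 19). With 1 array left out, RNU105C ranged from -0.021 to 0.46 in the isoform knockdown and from -0.41 to 0.052 in the WT knockdown, RNU11 from -0.18 to 7.24e-05 in the isoform knockdown, and MTDH between the knockdowns from -0.082 to 0.076, and none of these passed. Same-numbered knockdown arrays correlated at -0.028 to -0.00042 in their deviations from the group means, and differently numbered ones at -0.028 to 0.039. Same-numbered control and knockdown arrays correlated at 0.026 to 0.058. No pairing by replicate number was seen between the knockdowns, but so few arrays cannot exclude one. With the replicate number as a block, 7970 probes were called in the isoform knockdown (9001 without it), 10929 (11576) for the WT knockdown and 6836 (7399) between them. A slide block was not run, since no slide is given. For a probe below background on every array of a group, only a bound of the fold can be had.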
